A study of Mus musculus with 60 samples.

Results

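The transcriptome of the mouse hippocampus 4 h after a single injection of ketamine was compared with that 4 h after saline. All arrays whose labels carry this drug or saline at this time point were taken, which gave 3 ketamine and 3 saline arrays of the 60 hippocampal arrays in the series. Male C57BL/6J mice aged 8 to 10 weeks received ketamine at 20 mg/kg or saline intraperitoneally, and each whole-genome Illumina array was hybridized with pooled RNA of 2 mice. Values are therefore those of pools, and the spread between 3 arrays is not the spread between single animals. The remaining arrays hold ketamine and saline at 1, 2 and 8 h, memantine (15 mg/kg), phencyclidine (PCP, 5 mg/kg) and naive mice, which were not injected, at all 4 time points, with 3 arrays in each of the 20 groups. The labels name no other agent for the mice of the comparison.

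Ketamine is a channel blocker of the NMDA receptor, the glutamate-gated channel whose calcium current links synaptic activity to transcription in hippocampal neurons. The drug is known as an anaesthetic, as a psychotomimetic and as a rapidly acting antidepressant. Injection and psychoactive drugs also release corticosterone, the glucocorticoid of rodents, which enters the brain and activates the glucocorticoid receptor. This receptor binds DNA as a dimer, and among its known targets are Fkbp5, Sgk1 and Tsc22d3 as well as many transcripts of astrocytes and blood vessels. Perilipins, another family treated here, coat the surface of lipid droplets, the stores of neutral fat in a cell.

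Abundance is given throughout as log2 of the normalized intensity of a probe, so that a difference of 1 is a doubling of the intensity. Probes at the lower end of the scale are hard to tell from background, since 5% of the 45281 probes averaged under 6.29 and the median probe averaged 6.94, against 11.46 at the 95th percentile. One saline array, replicate 3, stood apart before any test, since the 95th percentile of its raw intensities was only 7.75 times the 5th percentile. In the other 5 arrays of the comparison this ratio was 14.2 to 28.5. The same saline array shared its slide with ketamine replicate 1, and the other 4 arrays came from 4 different slides. The difference between these slide mates is given beside the main values as the difference within the slide. The tissue label was borne out by transcripts of hippocampal neurons. Fibcd1, a marker of CA1 pyramidal cells, measured 12.84, 13.05 and 12.98 on the ketamine arrays and 12.86, 12.91 and 12.92 on the saline arrays. Over 10 measured hippocampal markers the differences ran between -0.26 for C1ql2, a marker of dentate granule cells, and 0.10 for Prox1, another one, and none reached a nominal p of 0.05. The probes of Neurod6 and Tdo2 were dim, below the median probe, and carry no weight in this check.

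No probe differed between ketamine and saline at 4 h at an adjusted p under 0.05 (limma on all 60 arrays, Benjamini-Hochberg over 45281 probes), which is 0% of the probes tested. The smallest adjusted p was 0.117, at Plin4. At a nominal p under 0.05 there were 955 probes, where evenly spread p-values would give 2264. The nominal thresholds used in the study for 1 drug (p under 0.0005 and an absolute log2 difference above 0.3) were passed by 3 probes that were higher with ketamine (0.00663% of the probes), those of Plin4, Etnppl and Dpf3. They were passed by 2 probes that were lower with ketamine (0.00442%), one of Sema7a and one without a gene name. These 5 probes became 24 without saline replicate 1, 2 without saline replicate 2, 3 without ketamine replicate 2 or 3, and 21 when the 7 arrays of high background in the series, among them saline replicate 3, were left out. In simulated data for this comparison over 45281 probes, limma recovered 8% of changes of 0.5 and 74% of changes of 1, so most changes of a size of 0.5 were not detectable with 3 arrays per group. The simulation held 50 changes each of 0.5, 1, 1.5 and 2 in independent noise, and the large ones ease the adjusted threshold for the others. In the real data no probe passed this threshold, so the 74% can overstate what was detectable there. Apart from Plin4 and Sema7a (adjusted p = 0.117 and 0.509, limma), every gene named for this contrast had an adjusted p of 1, so that the calls that follow are at a nominal p under 0.05 unless an adjusted p is given, and a p that misses the threshold does not show that the groups were alike.

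**Figure D1:**
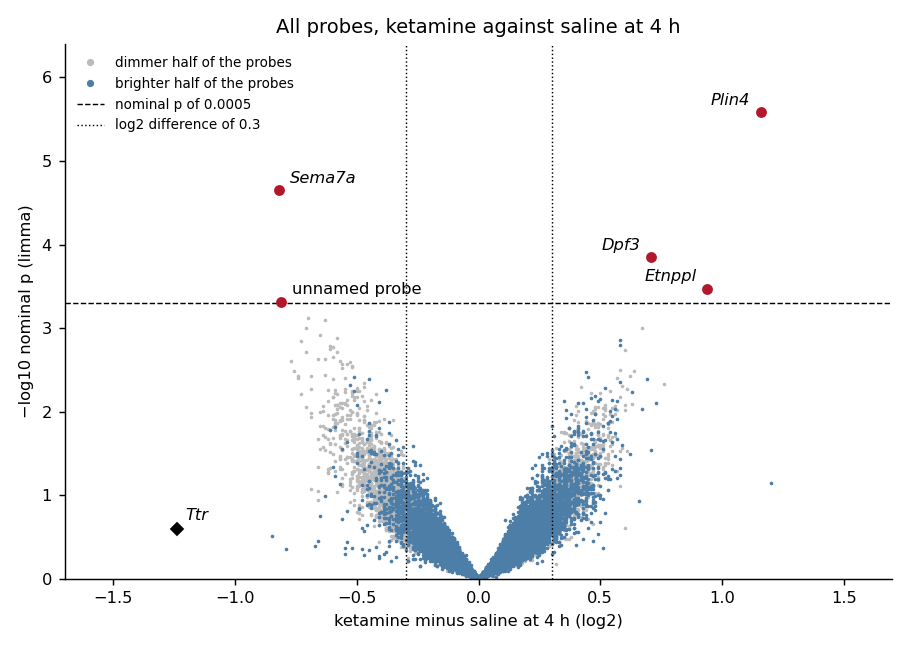
Difference between ketamine and saline at 4 h (log2, horizontal axis) against −log10 of the nominal p (vertical axis) for every probe, with the dimmer 50% of the probes in grey and the brighter 50% in blue. The 5 probes past both nominal thresholds are in red, with Plin4 the most distant from the rest at 1.16, and Ttr is shown as a black diamond at -1.24 with a high p.

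Plin4 was the transcript with the smallest p of all probes. It encodes perilipin 4, a coat protein of lipid droplets. Its abundance was 8.33, 8.75 and 8.86 on the 3 ketamine arrays and 7.74, 7.53 and 7.21 on the 3 saline arrays, and the lowest ketamine array lay well above the highest saline array. Means were 8.65 ± 0.28 with ketamine and 7.49 ± 0.27 with saline (SD, n = 3 each), a difference of 1.16 ± 0.22 (SE), which is a 2.23-fold higher intensity (adjusted p = 0.117, limma). An exact two-sided permutation test over the 3 ketamine and 3 saline arrays gave p = 0.1, the smallest value that the 20 possible splits allow. Within the shared slide the ketamine array exceeded the saline array by 1.12. Against naive mice at 4 h, whose arrays measured 7.22, 7.25 and 7.37, the difference was 1.37 ± 0.22 and did pass the adjusted threshold (adjusted p = 0.00386, limma).

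The other perilipins had smaller differences. Plin2, the general droplet coat, measured 7.0, 7.25 and 7.52 with ketamine and 7.16, 7.04 and 7.13 with saline. The differences were -0.24 for Plin1, 0.15 for Plin2, 0.25 for Plin3 and 0.20 for Plin5, all with a nominal p above 0.05, and the probe of Plin1 was dim. Enzymes that build or break down the neutral fat in droplets gave 0.18 ± 0.15 for Pnpla2 (the first triglyceride lipase), -0.02 ± 0.23 for Lipe, -0.15 ± 0.15 for Mgll, 0.15 ± 0.21 for Dgat1 and -0.05 ± 0.17 for Dgat2 (SE). Abhd5, the co-activator of Pnpla2, had 3 ketamine values (9.20, 9.01 and 9.10) above the 3 saline values (8.99, 8.56 and 8.83), but its difference of 0.31 ± 0.18 (SE) missed the nominal threshold. Of 26 measured genes of lipid droplets and fatty acid use, Plin4 was the only one with a nominal p under 0.05. Their median difference was 0.057, against -0.006 over all 19057 genes, each counted by its brightest probe, and it was 0.126 without ketamine replicate 2 and 0.025 without ketamine replicate 3.

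Etnppl encodes the phospho-lyase that degrades phosphoethanolamine, an enzyme enriched in astrocytes. It measured 8.17, 8.45 and 8.43 with ketamine and 7.94, 7.26 and 7.02 with saline, without overlap, and the saline arrays were spread much wider than the ketamine arrays. The difference was 0.94 ± 0.24 (SE) and 1.15 within the slide. A second probe of the gene separated the groups too, with 8.24, 8.23 and 8.40 with ketamine and 7.80, 7.62 and 7.75 with saline (0.57 ± 0.24, SE). Ketamine means were 8.36, 8.39, 8.35 and 8.38 at 1, 2, 4 and 8 h. Saline means were 8.14, 8.39, 7.41 and 8.26, and naive means were 8.09, 8.0, 7.73 and 8.21. Saline and naive means were thus both lowest at 4 h, where naive mice averaged 7.73 ± 0.13 (SD, n = 3). At 4 h ketamine exceeded naive mice by 0.62 ± 0.24 (SE). The ketamine effect at 4 h exceeded that at 2 h by 0.94, which did not pass the adjusted threshold (adjusted p = 0.999, limma).

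Genes known as targets of the glucocorticoid receptor included several with a nominal difference. Of 36 measured members, 7 were higher with ketamine at a nominal p under 0.05 and 0 were lower, where the background over all genes was 0.808% higher (154 of 19057) and 1.05% lower (201 of 19057). The 7 were Plin4, Sult1a1, Gjb6, Mfsd2a, Tsc22d3, Xdh and Sdc4. In 8 members all ketamine values lay above all saline values and in 1, Nfkbia, all lay below, against 3.26% and 3.38% of all genes. The median difference of the list was 0.139, with 26 of 36 members above 0. The count of 7 was 5 without saline replicate 3, 5 without ketamine replicate 2, 4 without saline replicate 2, and 8 against naive mice at 4 h in place of saline. Plin4, Sult1a1 and Gjb6 were among the members counted in each of these cases. Since the list was chosen with results of these data known, and several members come from the study itself, these counts are a description and not a test of the list.

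**Figure D2:**
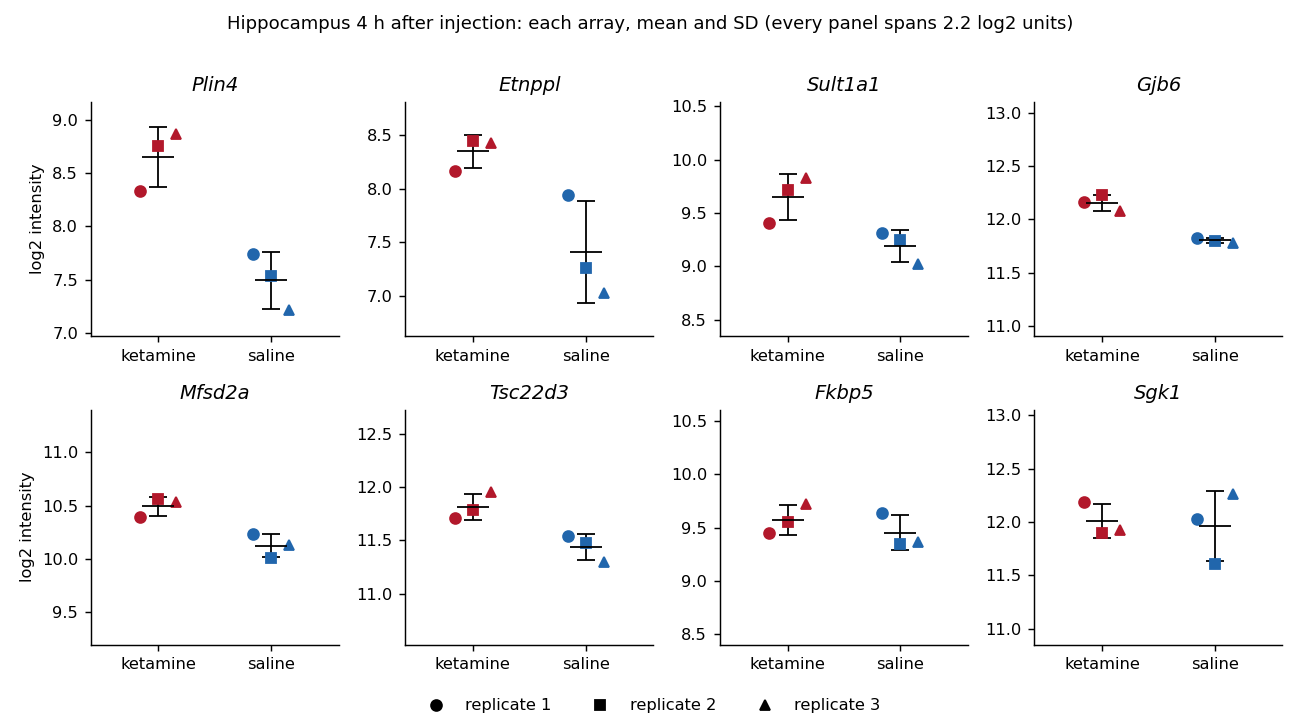
Abundance (log2 intensity, vertical axis) of 8 transcripts on each ketamine array (red, left) and each saline array (blue, right) at 4 h, with the mean and SD of 3 arrays, every panel spanning the same 2.2 log2 units. The groups do not overlap for Plin4, Etnppl, Sult1a1, Gjb6, Mfsd2a and Tsc22d3, and they do for Fkbp5 and Sgk1.

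Sult1a1, a phenol sulfotransferase, came next to Plin4 among these targets. It measured 9.41, 9.72 and 9.83 with ketamine and 9.31, 9.25 and 9.02 with saline, so the groups were separate but ketamine replicate 1 lay close to saline replicate 1. The difference was 0.46 ± 0.16 (SE) and 0.39 within the slide. Gjb6 encodes connexin 30, a gap junction protein of astrocytes. Its values were tight, with 12.16, 12.23 and 12.08 under ketamine and 11.83, 11.80 and 11.78 under saline, a difference of 0.35 ± 0.13 (SE). Again the saline mean at 4 h was the lowest of the saline means (12.05, 12.16, 11.80 and 11.89 at 1, 2, 4 and 8 h), while the ketamine means were 12.21, 12.15, 12.16 and 12.00. Naive mice too had their lowest mean at 4 h (11.95, 12.07, 11.76 and 11.86). At 4 h ketamine exceeded naive mice by 0.40 ± 0.13 (SE). Over 10 astrocyte markers, Gjb6 included, the median difference was 0.064, only Gjb6 had a nominal p under 0.05, and their summed intensity was 57476, 59393 and 53899 with ketamine and 50436, 49505 and 56166 with saline. Whether a change in astrocyte RNA has a part in the difference of Gjb6 was not tested.

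Mfsd2a encodes the lipid transporter of brain endothelium that carries docosahexaenoic acid across the blood-brain barrier. Its values were 10.39, 10.56 and 10.53 with ketamine and 10.23, 10.01 and 10.13 with saline, with a difference of 0.37 ± 0.15 (SE). Over 13 endothelial transcripts the median was 0.005, and Mfsd2a alone had a nominal p under 0.05. Tsc22d3, the glucocorticoid-induced leucine zipper, measured 11.71, 11.79 and 11.95 with ketamine and 11.54, 11.48 and 11.30 with saline (0.38 ± 0.16, SE). Its other probes gave 0.27 and 0.03. Xdh, the xanthine oxidoreductase of purine breakdown, and Sdc4, a cell surface proteoglycan, differed by 0.39 ± 0.17 and 0.27 ± 0.13 (SE), and in both the ketamine and saline values overlapped.

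Several well known targets of the receptor had no nominal difference. Sgk1, a kinase that regulates ion transport, measured 12.19, 11.90 and 11.93 with ketamine and 12.03, 11.61 and 12.26 with saline, which is 0.04 ± 0.22 (SE), and with 12.01 and 11.97 both groups had their lowest mean of the 4 time points. Fkbp5, the co-chaperone that dampens receptor signaling, measured 9.45, 9.55 and 9.72 with ketamine and 9.64, 9.35 and 9.37 with saline (0.12 ± 0.17, SE). Differences were -0.08 ± 0.15 for Per1, -0.15 ± 0.18 for Dusp1, -0.01 ± 0.11 for Klf9 and -0.05 ± 0.19 for Ddit4 (SE). Cdkn1a, the cell cycle inhibitor p21, had ketamine values of 8.15, 8.67 and 8.78 and saline values of 8.34, 8.22 and 8.04. Its difference of 0.33 ± 0.21 (SE) missed the nominal threshold, as did that of a second probe whose groups did not overlap (0.39). Mt1, a metal-binding protein, was separate between the groups, with 15.73, 15.73 and 15.76 under ketamine and 15.69, 15.69 and 15.35 under saline, but 2 of the saline arrays lay close to the ketamine arrays. Of the 36 members 10 had a difference below 0, and Nfkbia, the inhibitor of NF-kappaB, was the only one lower without overlap. It measured 8.96, 9.0 and 9.03 under ketamine and 9.17, 9.20 and 9.09 under saline (-0.16 ± 0.14, SE).

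The regions upstream of the start sites of 3 of these genes are shown because the differences of the genes at 4 h, 1.16 for Plin4, 0.46 for Sult1a1 and 0.04 for Sgk1, ran from the largest in the list to near 0. They are the 250 bases before the annotated start, from RefSeq on build GRCm38.p6, written 5′ to 3′ along the strand of the gene. The glucocorticoid receptor half-site AGAACA, or its reverse complement TGTTCT, is in capitals. The Plin4 region lies at chr17:56109783-56110032 on the minus strand and holds 0 half-sites, that of Sult1a1 lies at chr7:126676419-126676668 on the minus strand and holds 2, and that of Sgk1 lies at chr10:21993640-21993889 on the plus strand and holds 3. Sgk1 has 6 annotated starts, and this one was chosen because its window held the most matches, the other 5 windows holding 1, 0, 0, 1 and 0 half-sites.
Plin4: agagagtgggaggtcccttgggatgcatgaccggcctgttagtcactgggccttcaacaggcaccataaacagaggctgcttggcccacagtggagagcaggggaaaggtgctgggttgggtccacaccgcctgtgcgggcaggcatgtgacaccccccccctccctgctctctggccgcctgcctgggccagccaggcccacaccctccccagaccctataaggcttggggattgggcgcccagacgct
Sult1a1: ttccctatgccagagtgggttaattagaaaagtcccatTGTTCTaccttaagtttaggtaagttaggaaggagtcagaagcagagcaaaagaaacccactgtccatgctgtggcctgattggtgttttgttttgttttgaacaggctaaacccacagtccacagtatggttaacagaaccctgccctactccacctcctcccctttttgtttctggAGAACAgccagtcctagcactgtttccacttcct
Sgk1: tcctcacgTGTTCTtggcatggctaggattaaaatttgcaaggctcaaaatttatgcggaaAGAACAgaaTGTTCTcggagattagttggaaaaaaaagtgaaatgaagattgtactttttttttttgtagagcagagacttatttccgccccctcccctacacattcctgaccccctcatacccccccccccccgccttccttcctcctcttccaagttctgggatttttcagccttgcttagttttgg
In Sgk1 the neighbouring half-sites, 3 bases apart, form the full palindrome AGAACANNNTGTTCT, where N is any base. A region was found for 30 of the 36 targets, with 43 start sites in all, and 9 of these windows (20.9%) held a half-site, as did 5284 of 32851 windows (16.1%) of all annotated promoters. The palindrome was present in 1 of the 43 windows (2.33%), the one of Sgk1 printed here, and in 3 of all windows (0.00913%). Sgk1, with the full palindrome, differed by 0.04 at 4 h, and Plin4, without a match in this window, differed by 1.16. A match is not a bound site, and sites outside these windows were not searched. These differences are those of 4 h alone, and whether the sites have a part in them was not tested.

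The time course of these transcripts was read from the same fit. Plin4 with ketamine averaged 7.45, 8.52, 8.65 and 8.64 at 1, 2, 4 and 8 h, and with saline 7.32, 7.51, 7.49 and 8.17. Differences were thus 0.12 at 1 h, 1.01 at 2 h, 1.16 at 4 h and 0.47 at 8 h, and the smaller value at 8 h went with a higher saline mean rather than a lower ketamine mean. The effect at 4 h exceeded that at 1 h by 1.03 ± 0.31 and that at 8 h by 0.68 ± 0.31 (SE), both at a nominal p under 0.05 but with an adjusted p = 1 (limma), and it differed from that at 2 h by 0.14 ± 0.31. For Sult1a1 the differences were 0.27, 0.61, 0.46 and 0.31, and for Mfsd2a 0.37, 0.30, 0.37 and 0.30, with no pair of times apart at a nominal p of 0.05 in the tests of 4 h against the other times.

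Transcripts with differences near 1 at the first time point were close to saline at 4 h. Txnip, the thioredoxin-interacting protein that restrains glucose uptake, differed by 1.08 at 1 h (adjusted p = 0.026, limma) and by 0.09 ± 0.19 at 4 h, where ketamine arrays measured 10.24, 10.13 and 10.07 and saline arrays 10.04, 9.99 and 10.13. The difference between these effects was -0.99 (adjusted p = 1, limma). A second probe of Txnip separated the groups at 4 h, with 9.07, 9.10 and 9.05 under ketamine and 8.99, 8.72 and 8.83 under saline. Its difference of 0.23 ± 0.17 (SE) missed the nominal threshold. Sgk1 differed by 0.86 at 1 h and 0.04 at 4 h (difference of the effects -0.81). Ppp1r3g, a glycogen-targeting phosphatase subunit, differed by 0.78 at 1 h and -0.07 at 4 h (-0.85), and these differences too had a nominal p under 0.05 and an adjusted p = 1 (limma). Over all probes, 0 passed an adjusted p under 0.05 in the tests of the 4 h effect against the effects at 1, 2 and 8 h, and 701, 1569 and 660 probes had a nominal p under 0.05. The smallest adjusted p values were 1, 0.525 and 0.284. The median over the 7 genes of an early cluster of the study was -0.148 at 4 h, and -0.016 without saline replicate 3. That over 8 genes of its later cluster was 0.168, and that over the 8 genes which the study lists for all 3 drugs was 0.352, with 4 of the 8 (Plin4, Sult1a1, Mfsd2a and Tsc22d3) higher at a nominal p under 0.05 and 0 lower. These lists were chosen by the study on these samples, so their values are no independent evidence.

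**Figure D3:**
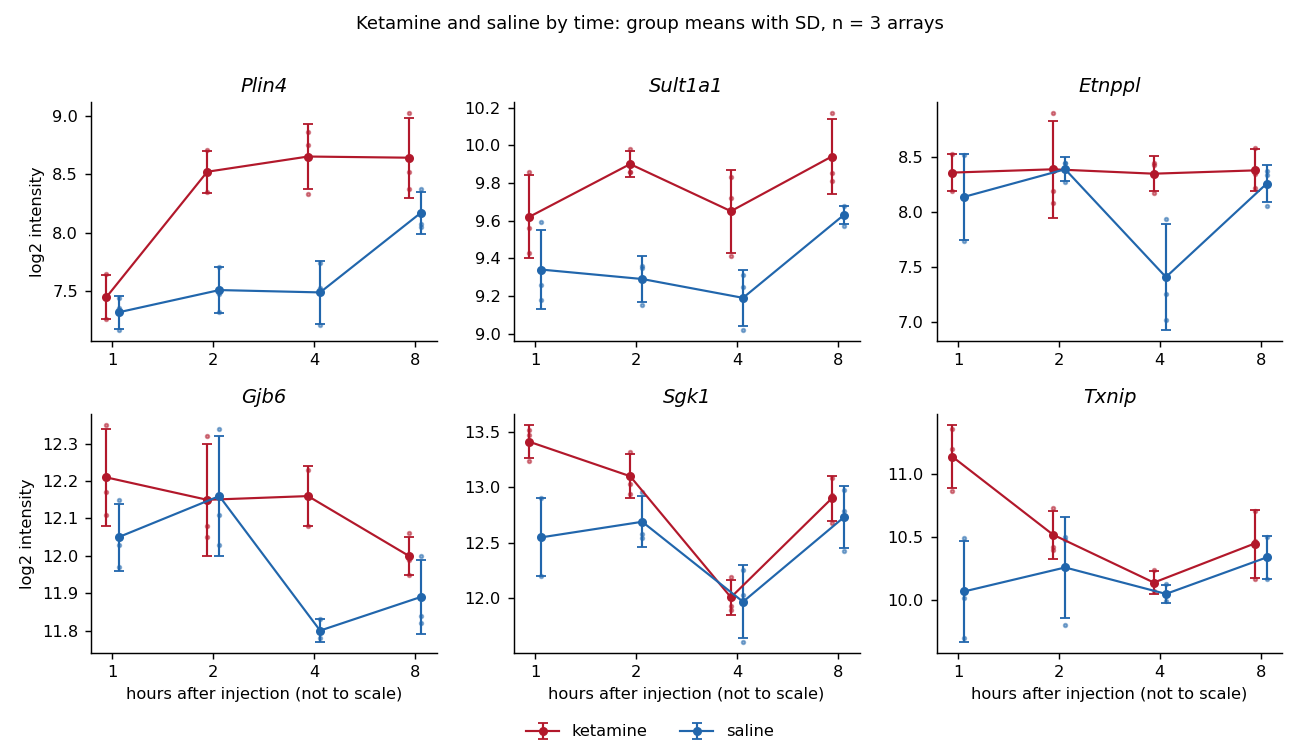
Abundance (log2 intensity, vertical axis) at 1, 2, 4 and 8 h after ketamine (red) and saline (blue), as means and SD of 3 arrays with single arrays as small points, the time axis not being to scale. Plin4 and Sult1a1 do not overlap with saline at 4 h, Etnppl and Gjb6 have their lowest saline mean at 4 h, and Sgk1 and Txnip differ from saline by 0.04 and 0.09 at 4 h.

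The other NMDA receptor antagonists at the same time point gave values for the same genes against the same 3 saline arrays, so these differences share their controls, and the drug doses differ. Plin4 differed from saline by 1.16 with ketamine, 2.04 with memantine (adjusted p = 8.43e-08, limma) and 1.31 with PCP (adjusted p = 0.0106, limma). Sult1a1 differed by 0.46, 1.07 (adjusted p = 0.000468, limma) and 0.66, and Mfsd2a by 0.37, 0.85 (adjusted p = 0.00404, limma) and 0.38. Set directly against memantine, ketamine was lower by 0.88 ± 0.22 (SE) for Plin4 and by 0.61 for Sult1a1 (adjusted p = 1 for both, limma), and by 1.08 for Cdkn1a (adjusted p = 0.0902, limma). Against PCP the differences were -0.15 ± 0.22 for Plin4, -0.20 for Sult1a1 and -0.11 for Cdkn1a, and none of these reached a nominal p of 0.05. No probe passed the adjusted threshold in either direct contrast in limma, while 498 probes had a nominal p under 0.05 against memantine and 1286 against PCP.

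The receptor that ketamine blocks was measured by 6 of 7 listed subunit genes, without Grin1, and none of the 6 differed at a nominal p of 0.05. Grin2b, the main partner subunit in forebrain next to Grin2a, measured 12.22, 12.05 and 12.43 with ketamine and 12.38, 12.54 and 12.15 with saline (-0.12 ± 0.15, SE). The differences of Grin2a, Grin2c, Grin2d, Grin3a and Grin3b were -0.04, 0.18, -0.04, -0.13 and -0.02, of which Grin2d and Grin3b are dim. Immediate early genes, the first transcripts to follow synaptic activity, had a median of -0.044 over 31 genes and 0 of them with a nominal p under 0.05, and the median was 0.013 without saline replicate 3. Arc measured 9.71, 9.79 and 9.91 with ketamine and 9.70, 10.12 and 9.95 with saline, Fos differed by -0.15 ± 0.25 and Egr1 by 0.07 ± 0.17 (SE). Npas4, an activity-dependent transcription factor of neurons, measured 8.17, 7.76 and 8.20 with ketamine and 8.55, 8.42 and 8.14 with saline (-0.33 ± 0.22, SE). Genes of the mTOR pathway, BDNF and eEF2 kinase, which are studied in the antidepressant action of ketamine, had a median of 0.031 over 20 members and 0 with a nominal p under 0.05. Bdnf itself measured 10.40, 10.32 and 10.37 with ketamine and 10.12, 10.25 and 10.54 with saline (0.06 ± 0.15, SE), Eef2k differed by -0.12 ± 0.14 and Mtor by 0.04 ± 0.13.

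Other pathways had at most 2 members at the nominal threshold, which 0.808% of all genes passed as higher and 1.05% as lower. The 18 heat shock genes had a median of 0.10, which was -0.019 without saline replicate 3. Among them the co-chaperone Dnaja1 differed by 0.69 ± 0.23 (SE) with a single low saline array, its values being 7.41, 7.54 and 7.20 with ketamine and 7.23, 5.97 and 6.89 with saline. A second, dim probe of Dnaja1 was lower with ketamine on all arrays, at 6.52, 6.45 and 6.46 against 6.76, 7.03 and 6.93 with saline (-0.44). Hspa1b, an inducible chaperone, measured 7.61, 8.34 and 7.80 with ketamine and 7.35, 7.22 and 7.59 with saline, and missed the threshold (0.53 ± 0.28, SE), while Hspa1a differed by 0.14 ± 0.26. In the list of IL-6, NF-kappaB and inflammation, 2 of 25 genes were higher at a nominal p under 0.05. Icam1 (an adhesion molecule) and Il6st (the signal-transducing subunit of the IL-6 receptor) differed by 0.37 ± 0.18 and 0.35 ± 0.17 (SE), with overlapping groups in both. For Il6st the low value was that of the saline array of high background, 7.71 against 8.66 and 8.63 in the other saline arrays and 8.75, 8.55 and 8.74 with ketamine. Among clock genes Cry1 differed by -0.60 ± 0.25 (SE) at a dim probe, and Dbp and Per2 by 0.08 and 0.15. Of 20 genes of p53 signaling and growth arrest 0 reached a nominal p of 0.05.

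**Figure D4:**
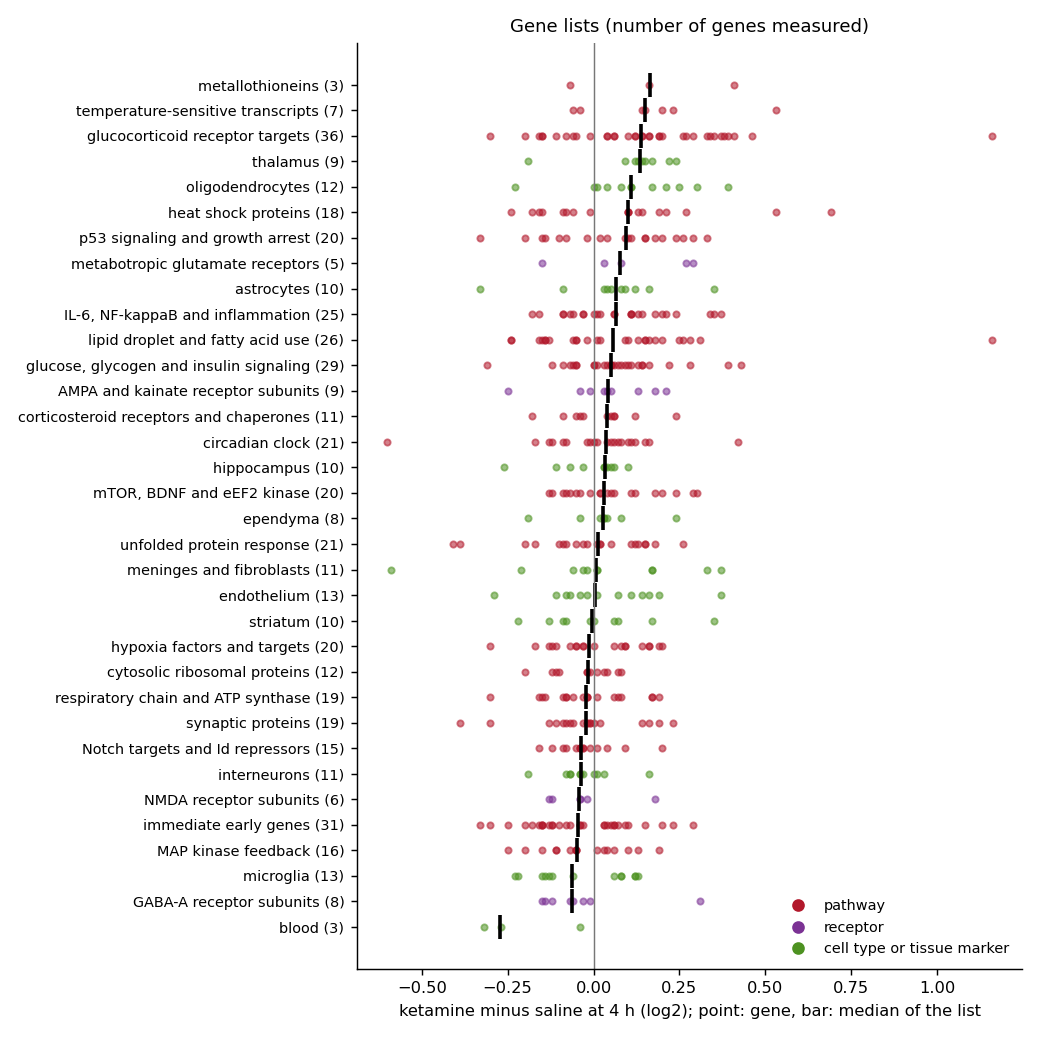
Difference between ketamine and saline at 4 h (log2, horizontal axis) of each measured gene (points) in the gene lists, with the median of each list as a black bar and the number of genes in parentheses. The lowest median plotted is -0.271, for the 3 blood transcripts (-0.496 without saline replicate 3, and -0.541 to 0.07 over 18 alternatives), and Plin4 at 1.16 is the point farthest to the right.

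Myelin transcripts of oligodendrocytes were mostly on the side of ketamine. Of 12 genes 11 had a difference above 0, with a median of 0.11 and a range of -0.23 to 0.39. Hapln2, an extracellular protein at the nodes of Ranvier, measured 8.82, 8.82 and 8.76 with ketamine and 8.37, 8.49 and 8.37 with saline, a difference of 0.39 ± 0.17 (SE). It was the only member at the nominal threshold, and it missed this threshold without ketamine replicate 1 or 2 or saline replicate 1 or 3. Mbp, a main protein of myelin, measured 15.58, 15.69 and 15.60 with ketamine and 15.43, 15.58 and 15.53 with saline. The summed intensity of the list was 102898, 111949 and 101094 with ketamine and 89534, 97081 and 99008 with saline. In tissue of mixed cells, more cells of a type and more RNA per cell cannot be told apart. Against naive mice at 4 h in place of saline, 5 of the 12 genes were above 0. How much white matter each dissection held was not tested.

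Choroid plexus transcripts were examined apart, since this tissue of the ventricles adjoins the hippocampus and can be carried along in dissection. Ttr, which encodes the thyroid hormone carrier transthyretin and is abundant in this tissue, measured 15.83, 12.02 and 14.79 on the ketamine arrays and 15.86, 15.05 and 15.46 on the saline arrays. One ketamine array, replicate 2, was thus far below the other 5, and ketamine replicate 1 was at the level of the saline arrays. The mean difference was -1.24 with a standard error of 1.07 (nominal p = 0.251, limma), and the exact two-sided permutation test gave p = 0.4, where 0.1 is the smallest possible value. The same array was low for other markers, with 7.04 for the water channel Aqp1 against 9.93 and 7.94 on the other ketamine arrays and 9.69, 8.71 and 9.06 on the saline arrays. Clic6, a chloride channel protein, measured 11.28, 7.65 and 9.35 with ketamine and 10.94, 9.43 and 10.28 with saline.

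Over 21 measured choroid plexus genes, 19 had a difference below 0 and none had a nominal p under 0.05, with a median of -0.154. Their summed intensity was 71829, 8385 and 34254 with ketamine and 70834, 39805 and 53181 with saline, so each group held a wide range. Without ketamine replicate 2 the median of the list was 0.114. Levels of this tissue varied over the whole series. Naive mice at 4 h measured only 11.37, 12.17 and 11.08 for Ttr, so that ketamine exceeded naive mice by 2.67 and saline exceeded them by 3.92. The direction for Ttr at 4 h therefore depended on which control was used. On the ketamine arrays Plin4 was highest on replicate 3. Its value on replicate 2, the array with least choroid plexus signal, was 8.75, between the other 2. On the saline arrays Plin4 and Ttr were both highest on replicate 1, at 7.74 and 15.86. Whether choroid plexus content has a part in the difference of Plin4 was not tested.

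**Figure D5:**
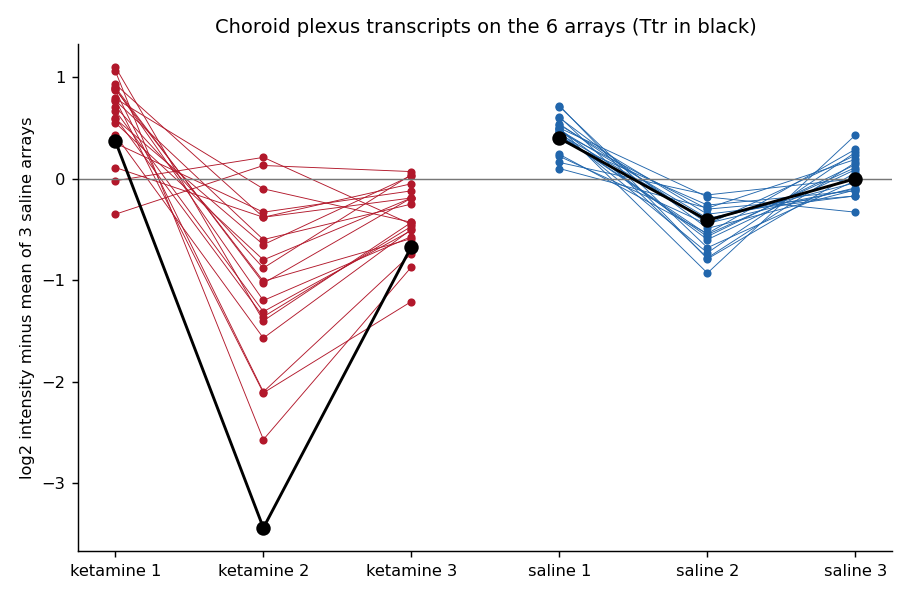
Abundance of 21 choroid plexus genes on each of the 6 arrays, as log2 intensity minus the mean of the 3 saline arrays (vertical axis), with 1 line per gene, ketamine in red, saline in blue and Ttr in black. Most genes are lowest on ketamine replicate 2, where Ttr measured 12.02.

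Probes of the brighter 50% that separated the groups are given as a description, because they were chosen by these same values. They are the 15 higher and the 15 lower probes of smallest p whose 3 ketamine and 3 saline values did not overlap. The higher ones had differences of 0.35 to 1.16 and included, beside Plin4, Etnppl, Sult1a1 and Gjb6, the insulin receptor adaptor Grb14 (0.58), the cyclin Ccnt2 (0.58), the steroid dehydrogenase Hsd17b1 (0.58), the synaptic vesicle GTPase Rab3c (0.52), the NF-kappaB inhibitor Nfkbie (0.48) and the paxillin relative Lpxn (0.67). The lower ones had differences of -0.61 to -0.34 and included the apoptotic protease Casp8 (-0.51), the RNA polymerase III subunit Polr3a (-0.38), the phosphorylase kinase subunit Phka1 (-0.51), the phosphodiesterase Pde8b (-0.61), the vesicle protein Vamp1 (-0.45) and the adherens junction protein Ctnnd2 (-0.42).

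Other probes of the same genes seldom separated the groups in the same direction. Of the 15 higher genes 8 had another probe in the brighter 50%, and in 2 of them, Etnppl and Ccnt2, such a probe separated the groups in the same direction. Of the 15 lower genes 9 had another such probe, and in 0 of them did it separate the groups in the same direction. Over all 22640 probes of the brighter 50%, 871 were separate with ketamine higher and 471 with ketamine lower. Of the 14 other brighter probes of the higher genes, 6 had a difference above 0. Of the 18 of the lower genes, 6 had a difference below 0. Grb14, for instance, differed by 0.58 at the chosen probe but by -0.09 at its brightest probe, which measured 10.03, 9.87 and 10.24 with ketamine and 10.01, 10.40 and 9.99 with saline. For Pde8b the chosen probe gave -0.61 and another probe 0.62. The same held for Sema7a, a membrane semaphorin, whose probe past the nominal thresholds was dim, with 6.03, 5.88 and 5.96 under ketamine and 6.97, 6.72 and 6.64 under saline (-0.82 ± 0.18, SE). Its brightest probe, at about 11, gave -0.03. Dpf3, a chromatin reader, measured 6.74, 6.88 and 7.07 with ketamine and 6.48, 6.04 and 6.03 with saline at 1 dim probe (0.71 ± 0.17, SE), and its other probes gave 0.17 and -0.04.

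Casp8, chosen by its separation at 4 h like the other lower probes, measured 7.64, 7.12 and 7.49 with ketamine and 7.83, 7.97 and 7.99 with saline, and Polr3a 8.48, 8.39 and 8.60 with ketamine and 8.76, 9.05 and 8.81 with saline. In both genes every ketamine array lay below every saline array, which the choice of the probes required. Against naive mice at 4 h, ketamine differed by -0.10 ± 0.17 and -0.11 ± 0.13, and saline by 0.41 ± 0.17 and 0.28 ± 0.13 (SE). Of the 15 higher probes, 13 had their lowest saline mean of the 4 time points at 4 h, and 7 their highest ketamine mean. Of the 15 lower probes, 14 had their highest saline mean at 4 h, and 10 their lowest ketamine mean. The choice of these probes by their values at 4 h favours such extremes in either group. The share over all probes was not counted, so these counts are a description and do not tell which group changed.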

How the data were processed

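Illumina MouseWG-6 arrays had been read by the authors with BeadStudio and BeadArray. The authors deposited non-normalized probe intensities of 60 arrays, used here, and a table of normalized log2 values that the authors had computed, used as an alternative. Intensities were background corrected (normexp, offset 50), quantile normalized over the 60 arrays and log2 transformed. A group-means model with 20 groups was fitted in limma 3.58.1 (R 4.3.3) with 40 residual degrees of freedom, moderated, and adjusted by Benjamini-Hochberg over 45281 probes. Of these, 34885 had 1 gene symbol, 18 several and 10378 none. A gene was represented by its brightest probe over all arrays. The members and gene lists were chosen with earlier results of these data known. Named were the 15 higher and 15 lower non-overlapping probes of smallest p in the brighter 50%, up to 4 list members of smallest p, genes named in the study, Ttr, and list members picked for their role after their values were seen. Mat2a was not analysed here. Each array holds a pool of 2 mice, and p-values measure the spread between arrays. The fit was tested on simulated data. Promoters were searched with Python 3.11.15. Alternatives covered background correction, the authors' values, the arrays included, a filter on dim probes, slide, replicate number, variance model, naive controls and leaving out each array. Depth does not apply to arrays, whose number limits the precision.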

Additional observations from a re-analysis of the deposited data

Results flagged for a closer look

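Nfkbia, Vamp1, Dnal1 and Nectin2 stood out because the 3 ketamine and 3 saline arrays were separate at 4 h and separate the opposite way at another time point. Nfkbia, the NF-kappaB inhibitor, differed from saline by -0.16 at 4 h and by 0.66 at 1 h, a difference between the effects of -0.82 (adjusted p = 1, limma). It differed by 0.26 at 8 h, which is -0.41 between 4 and 8 h (adjusted p = 1, limma). The vesicle protein Vamp1 differed by -0.45 at 4 h and 0.28 at 2 h, a difference of -0.72 (adjusted p = 0.999, limma), and its other probes gave 0.18, 0.08 and 0.12 at 4 h. The axonemal dynein light chain Dnal1 differed by 0.50 at 4 h and -0.23 at 8 h, a difference of 0.73 (adjusted p = 1, limma), and its other probes gave -0.04, 0.02 and -0.16 at 4 h. Nectin2, an adhesion molecule, differed by -0.34 at 4 h and 0.31 at 8 h, a difference of -0.65 (adjusted p = 1, limma), and its other probes gave 0.17 and -0.19 at 4 h. Vamp1, Dnal1 and Nectin2 were chosen by their values at 4 h, and all 4 genes were picked here for the opposite separation. The differences between time points had a nominal p under 0.05, which this choice favoured, and did not pass the adjusted threshold. They are a description and not a test. At 4 h alone, 3.26% of all genes were separate with ketamine higher and 3.38% with ketamine lower. The share separate in opposite directions at 2 time points was not counted.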

How the results depend on the processing

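No probe was lower with ketamine at an adjusted p under 0.05 in any of the 18 alternatives, and none was higher except with naive mice at 4 h as the control, where 1 probe, that of Plin4, passed. With that control Plin4 differed by 1.37, Ttr by 2.67, and 4 genes chosen by their values against saline changed direction, Gtf3c6 to 0.03, Lcn8 to 0.01, Nfkbie to -0.02 and Sbf2 to -0.13. The 5 probes past both nominal thresholds were 2 without background correction, 2 with the authors' values, 3 with the 6 arrays alone, 10 with the 24 ketamine and saline arrays, 2 in the brighter 50% of the probes, 12 with slide as a fixed block, and 2 to 24 when single arrays were left out. They were 21 without the 7 arrays of high background, an alternative chosen after seeing the data. Probes that differed between ketamine and memantine, 0 in the main analysis, were 3 without background correction, 3 with the authors' values, and 1 with slide as a fixed block, with slide as a random block or without the arrays of high background. The cause of these shifts was not tested. The replicate numbers did not pair the arrays, since deviations of equally numbered ketamine and saline arrays correlated at -0.082, -0.043 and -0.374, and with the replicate number as a block 4 probes passed both nominal thresholds. Over 41 named genes, 33 kept their direction in every alternative run for them. These genes include the 15 higher and 15 lower probes chosen because their groups did not overlap. For those probes, leaving out a single array could not change the direction, so that part of the count was fixed by the choice. Plin4, Etnppl, Sult1a1 and Gjb6 are among them. The differences of Plin4, Etnppl, Sult1a1 and Gjb6 ranged over 0.81 to 1.37, 0.62 to 1.30, 0.37 to 0.58 and 0.32 to 0.44. The median of the glucocorticoid receptor targets ranged over 0.092 to 0.173. Of the probes at a nominal p under 0.05, 181 were higher and 68 lower with ketamine in the brighter 50%, and 264 were higher and 442 lower in the dimmer 50%, where signal lies closest to background.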
